A study of Mus musculus with 2 samples.

Results

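The leukocyte integrins described here are 10 genes chosen by name, 7 α subunits (Itgam, Itgax, Itgal, Itga4, Itga6, Itga9 and Itgav) and 3 β subunits (Itgb1, Itgb2 and Itgb5), out of 20330 Ensembl gene identifiers measured. All 10 had a row in the table and passed the filter on low values, which asked for 1 FPKM or more in either library. FPKM is the number of fragments per kilobase of transcript, scaled to library size, so levels can be set side by side between genes. RNA was from adipose tissue macrophages (ATM) sorted with F4/80 and CD11b antibodies from visceral fat of C57BL/6 mice after 12 weeks of high-fat diet. Mice of both groups were ApoE-/- and Hif-1αfl/fl. The KO mice were hMRP8cre+, with the Cre recombinase under the promoter of human MRP8 (S100A8), which is active in myeloid cells and above all in neutrophils, and the WT mice were hMRP8cre-. There was 1 library per genotype. No difference below therefore has a replicate check or a p-value, and the labels give neither the age nor the number of animals behind a library.

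Integrins are cell surface receptors made of 1 α and 1 β subunit. They bind other cells or the matrix outside and link to actin inside, and signals from within the cell switch them from a bent to an extended, active shape. Leukocytes are marked by the β2 family, in which Itgb2 (CD18) pairs with Itgal (CD11a, giving LFA-1), Itgam (CD11b, giving Mac-1) or Itgax (CD11c). Itgb1 pairs with many α subunits and serves binding to fibronectin, laminin and VCAM-1. Itgav pairs with Itgb5 among others, and these receptors recognise ligands such as vitronectin, osteopontin and MFG-E8, the bridging protein for dying cells.

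Itgam and Itgax lie next to each other in mouse, and Itgav and Itgb5 were the members above 0 in both libraries that differed most. For these 4 genes the 250 bases before the RefSeq start are shown 5′ to 3′ from build GRCm38.p6, all on the plus strand. The capitals mark 2 motifs. The core bound by HIF-1 was searched as ACGTG or GCGTG, and the core bound by PU.1, a factor of the myeloid lineage, as GAGGAA, each on both strands, and a match on the minus strand is capitalised as the plus strand reads.
Itgam, chr7:128062390-128062639: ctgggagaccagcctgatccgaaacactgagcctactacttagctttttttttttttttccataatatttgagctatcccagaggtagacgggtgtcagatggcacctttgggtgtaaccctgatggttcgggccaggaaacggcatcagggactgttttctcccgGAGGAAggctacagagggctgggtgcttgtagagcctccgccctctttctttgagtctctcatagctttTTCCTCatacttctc
Itgax, chr7:128129300-128129549: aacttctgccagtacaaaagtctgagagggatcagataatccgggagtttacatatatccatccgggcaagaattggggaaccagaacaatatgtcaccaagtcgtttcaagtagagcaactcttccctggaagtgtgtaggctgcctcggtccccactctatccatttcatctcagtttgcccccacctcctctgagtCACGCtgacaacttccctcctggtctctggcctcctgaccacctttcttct
Itgav, chr2:83724147-83724396: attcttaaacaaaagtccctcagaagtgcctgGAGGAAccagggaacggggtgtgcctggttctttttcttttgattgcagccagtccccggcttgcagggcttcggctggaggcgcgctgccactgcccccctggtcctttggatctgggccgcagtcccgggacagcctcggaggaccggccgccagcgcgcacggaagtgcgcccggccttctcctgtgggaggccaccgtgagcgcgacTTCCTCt
Itgb5, chr16:33829415-33829664: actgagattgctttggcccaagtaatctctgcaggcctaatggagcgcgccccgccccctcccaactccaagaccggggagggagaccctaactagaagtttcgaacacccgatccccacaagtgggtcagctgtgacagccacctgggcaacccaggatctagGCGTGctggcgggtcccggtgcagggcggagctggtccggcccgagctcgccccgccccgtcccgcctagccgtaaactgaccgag
The Itgam window held 2 PU.1 cores, whose first letters lie 84 and 15 bases before the start, and no HIF core. In Itgav there were also 2 PU.1 cores, at 218 and 7 bases. Itgax held 1 HIF core at 51 bases and Itgb5 held 1 at 86 bases, and neither held a PU.1 core. No match of one motif overlapped a match of the other in these 4 windows. Promoters of 7 members were in the RefSeq table, and those of Itgal, Itga6 and Itgb2 were not. A HIF core was found in 3 of the 7 (Itgax, Itga9 and Itgb5), against 38.6% of 32851 windows of the same length, and a PU.1 core in 3 of the 7 (Itgam, Itgav and Itgb1), against 23.3%. The window of Itga9 precedes a RefSeq start that lies inside the GENCODE gene. A match describes the letters only and is not evidence of binding.

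The libraries were checked before the integrins were compared. The smallest FPKM x kb value that recurs in genes with a single annotated transcript was taken as 1 fragment, which put the depth at about 5870000 fragments in WT and 7460000 in KO. The targeted gene Hif1a was at 30.4 FPKM in WT against 21.0 in KO, a value for the whole gene in which the deleted part was not analysed here. Adgre1, which encodes the F4/80 used in the sort, was at 299 FPKM in WT against 239 in KO. Apoe, disrupted in the mice of both groups, was still listed at 94.3 and 117 FPKM, also as a whole-gene value. The 8 macrophage markers with a row had a median change of 0.02, and their summed FPKM was 11699 in WT against 11655 in KO, most of it from C1qb, Lyz2 and C1qa. Past 2-fold among them were Mertk, with 38.0 and 88.1 FPKM, and Fcgr1, with 49.3 and 21.9. Changes are given throughout as log2(FPKM + 1), KO minus WT, a scale that understates the change of low genes.

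Itgb2 and Itgam were close in level between the libraries, whereas Itgb5, Itgav and Itga6 had the lowest KO levels relative to WT. Itgb2 and Itgam stood at 188 and 128 FPKM in WT and 216 and 128 in KO. Itgb5 was at 42.9 FPKM in WT against 15.5 in KO, Itgav at 12.0 and 5.18, and Itga6 at 2.22 in WT while it was listed at 0 in KO. Of the 10 genes, 1 (Itga6) was lower by more than 3-fold on this scale and 0 were higher. In the background, 27.3% of the 10297 genes compared passed 3-fold in either direction, with 13.7% of all genes lower and 13.6% higher, so 1 of 10 is not above the background. At 2-fold, 3 members were lower (Itga6, Itgav and Itgb5) and 0 were higher, against 22.5% of all genes lower, 23.1% higher and 45.6% in either direction. The median change of the 10 genes was -0.39, beside a median of 0.03 over all genes compared. Of the 10 changes 9 were below 0, against 48.7% of all genes, but this counts Itgam, whose ratio was 0.999 and whose change was 0.04 and 0.01 when the libraries were scaled to the same sum or the same upper quartile.

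**Figure D1:**
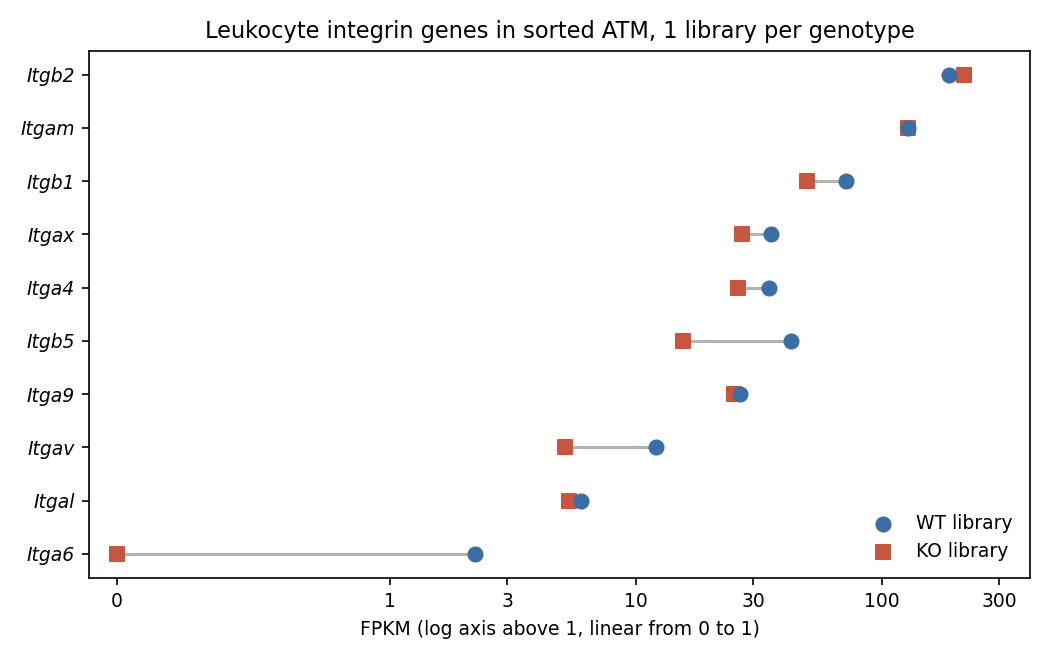
FPKM of each of the 10 integrin genes in the WT library (circles) and the KO library (squares), on an axis that is logarithmic above 1 and linear from 0 to 1. Itgb2, Itgam, Itga9 and Itgal lie close together in the libraries, while Itgb5 (42.9 and 15.5), Itgav (12.0 and 5.18) and Itga6 (2.22 and 0) are lower in KO.

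The order of the levels was then compared. In both libraries Itgb2, Itgam and Itgb1 were the 3 highest, in this order, and Itga6 was the lowest. The place of Itgb5 differed, as it took the fourth place in WT, above Itgax, Itga4 and Itga9, and the seventh in KO, below all of them. Itgav and Itgal exchanged the eighth and ninth places, with 12.0 against 6.01 FPKM in WT and 5.18 against 5.35 in KO. Among all genes Itgb2 ranked 420 in WT against 367 in KO, Itgam 617 and 595, and Itgb5 1646 and 3795. With 1 library each, no neighbours in this order can be said to differ beyond their spread. Together the 10 genes summed to 547 FPKM in WT against 498 in KO, which was 83.4% and 82.5% of the FPKM of all 25 integrin genes with a row.

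The β2 integrins, the receptors for ICAM-1 and complement iC3b on myeloid cells, were examined first. Itgb2, the subunit they all share, was at 188 FPKM in WT against 216 in KO, a change of 0.20 that rests on an estimated 3274 and 4795 fragments. Itgam was at 128 FPKM in both libraries, with a KO to WT ratio of 0.999. CD11b antibody was used to sort the cells, so the presence of Itgam is a property of the gate and not a finding. In the band of genes with a mean of 100 FPKM and over, to which both belong, 2.14% of 748 genes passed 3-fold and 7.75% passed 2-fold, so the libraries were close to each other at this level.

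Itgax, which encodes the CD11c used to mark M1-polarized ATM, was at 35.5 FPKM in WT against 27.0 in KO, a change of -0.38. Itgal, the LFA-1 subunit used by lymphocytes and monocytes to leave the blood, was at 6.01 FPKM in WT against 5.35 in KO, a change of -0.14. Neither reached 2-fold, while 19.5% of genes with a mean of 30 to 100 FPKM and 60.6% of those at 1 to 10 FPKM did so in either direction. Itgad, the remaining α partner of Itgb2, was listed at 0 in both libraries. Itgam thus made up 75.5% of the summed FPKM of these α subunits in WT and 79.8% in KO, and Itgax 21.0% and 16.9%. The Itgam to Itgax ratio was 3.60 in WT against 4.73 in KO.

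The level of the α partners was then set beside that of Itgb2. The α subunits summed to 169 FPKM in WT against 160 in KO, which was 0.902 and 0.740 of the Itgb2 level. The α sum was thus below the β subunit in both libraries. The β2 family as a whole (Itgb2, Itgam, Itgax and Itgal) took 54.5% of all integrin FPKM in WT and 62.3% in KO.

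**Figure D2:**
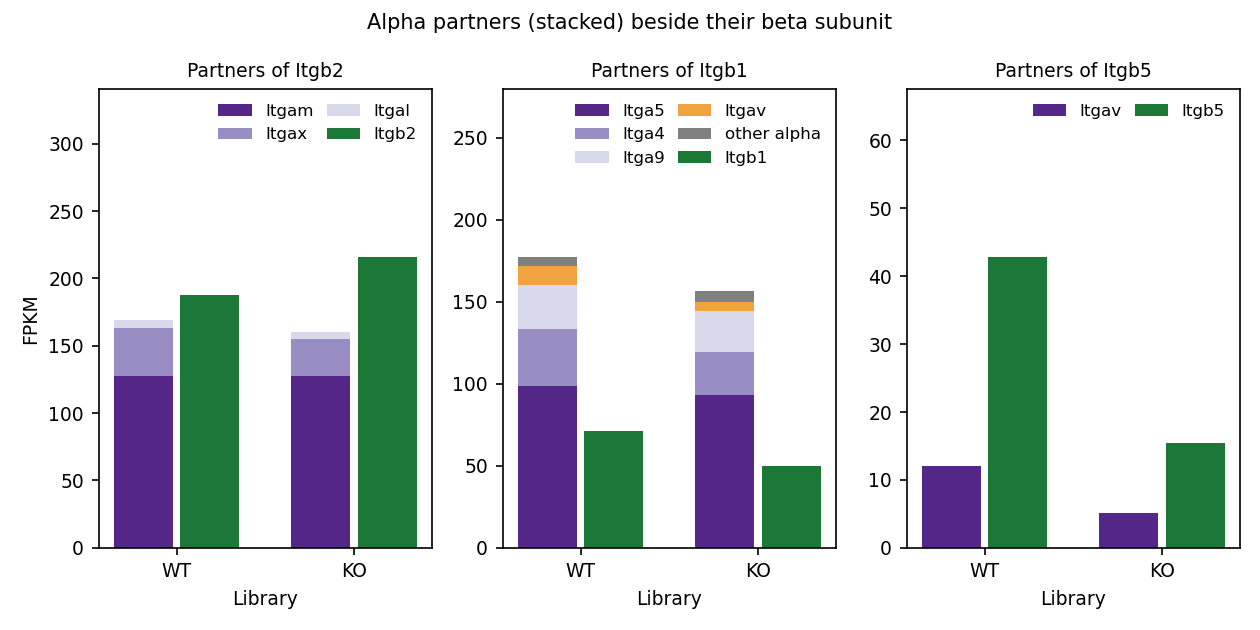
FPKM of the α subunits that can pair with Itgb2, Itgb1 or Itgb5 (stacked bars) beside the FPKM of that β subunit (green), in the WT and KO libraries. The α sum is below Itgb2 (169 against 188 in WT, 160 against 216 in KO) and above Itgb1 (178 against 71.4, 156 against 49.9), and Itgav is below Itgb5 in both libraries.

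Neutrophils also carry β2 integrins, and their markers differed between the libraries. KO had higher levels of all 8 neutrophil markers that passed the filter, while 51.3% of all genes compared had a change above 0. Their median change was 1.31, beside 0.03 over all genes, and the list summed to 197 FPKM in WT against 572 in KO. By 3-fold, 3 of the 8 were higher (S100a9, Ngp and Mpo), beside 13.6% of all genes and 23.2% of those at 1 to 10 FPKM, where Ngp and Mpo lie. S100a8 was at 73.3 FPKM in WT against 182 in KO, and S100a9 at 63.4 and 301. Of the granule genes, Ngp (2.61 FPKM in KO) and Mpo (2.29) were listed at 0 in WT, while Elane, Camp, Ltf and Mmp8 were listed at 0 in both libraries, and Ly6g had no row. The part of these cells in the level of Itgb2 was not tested. In sorted bulk RNA, fewer cells of a type cannot be told apart from less RNA per cell.

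Subunits of the β1 family were compared next. Itgb1, the most widely used β subunit, was at 71.4 FPKM in WT against 49.9 in KO, a change of -0.51 that rests on an estimated 1600 and 1421 fragments. Itga4, which with Itgb1 forms VLA-4, the receptor for VCAM-1 and fibronectin, was at 34.7 FPKM in WT against 26.0 in KO, a change of -0.40. These 2 genes and Itgax lay in the band of 30 to 100 FPKM, where 10.8% of 1505 genes were lower by 2-fold or more and 8.64% were higher, and all 3 differences were under 2-fold. Itga9, whose product with Itgb1 binds tenascin and VCAM-1, was at 26.5 FPKM in WT against 25.1 in KO, a change of -0.07, the smallest of the members after that of Itgam.

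Itga6, a laminin receptor subunit that pairs with Itgb1 or Itgb4, was at 2.22 FPKM in WT, an estimated 56.3 fragments, and was listed at 0 in KO. No fold is given against a value of 0, which can be a failed estimate. Of the 2297 genes at 1 to 5 FPKM in WT, 21.5% were listed at 0 in KO, and of the 2263 genes at that level in KO, 26.0% were listed at 0 in WT. Itga6 is also among the genes the study listed as lower from these same libraries, so its direction here is not independent evidence.

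The α subunits that can pair with Itgb1 summed to 178 FPKM in WT against 156 in KO, which was 2.49 and 3.13 times the level of Itgb1. Here the α sum was above the β subunit, in contrast to Itgb2, although Itga4, Itga6 and Itgav also have other β partners. Most of this sum came from Itga5, the fibronectin receptor subunit, which is not among the 10 genes and was at 98.8 FPKM in WT against 93.4 in KO. The Itgb2 to Itgb1 ratio was 2.63 in WT against 4.33 in KO.

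Itgav and Itgb5, which form a receptor for vitronectin and for MFG-E8 on dying cells, were both lower in KO. Itgb5 was at 42.9 FPKM in WT against 15.5 in KO, a change of -1.41 that rests on an estimated 826 and 380 fragments. The WT level was 2.77 times the KO level as a plain ratio. Of the 2734 genes with a mean of 10 to 30 FPKM, the band of Itgb5, 17.7% were lower by 2-fold or more and 9.47% by 3-fold or more. The mean of Itgb5, 29.2 FPKM, is near the upper end of this band, and in the next band, of 30 to 100 FPKM, the shares were 10.8% and 4.72%.

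Itgav was at 12.0 FPKM in WT against 5.18 in KO, a change of -1.08, and the WT level was 2.32 times the KO level. The band of 1 to 10 FPKM was more scattered still, with 29.8% of 4790 genes lower by 2-fold or more and 30.8% higher. The mean of Itgav, 8.61 FPKM, is near the upper end of this band. In the next band, of 10 to 30 FPKM, the shares were 17.7% and 18.7%. The level of Itgb5 was 3.56 times that of Itgav in WT and 2.99 times in KO. Together they took 8.38% of all integrin FPKM in WT and 3.42% in KO. The Itgb2 to Itgb5 ratio was 4.38 in WT against 14.0 in KO.

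**Figure D3:**
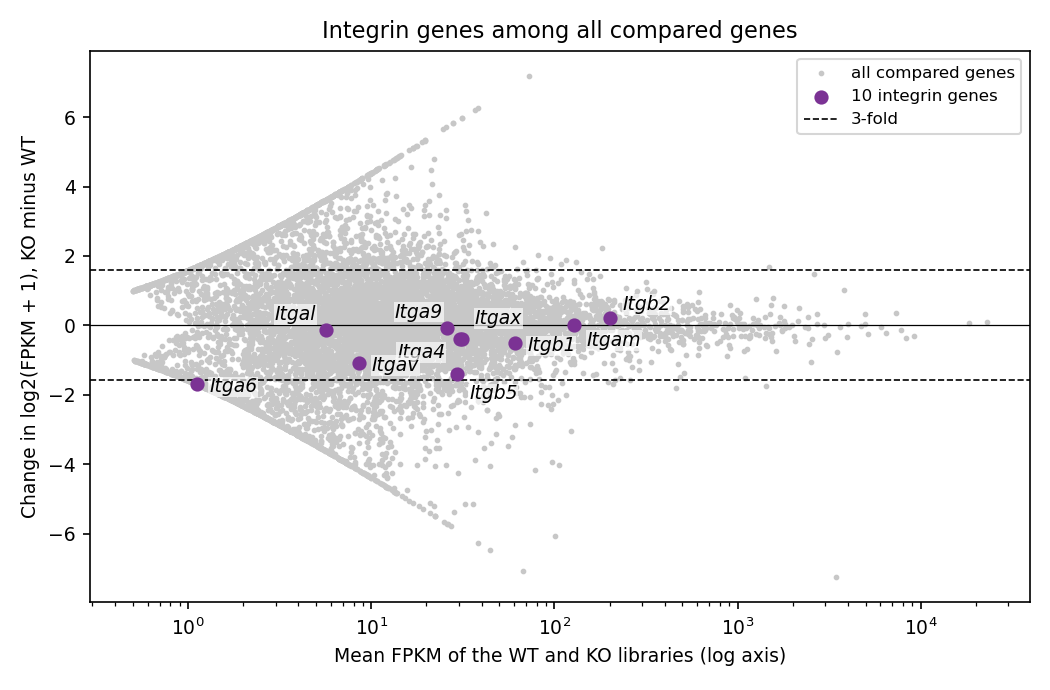
Change in log2(FPKM + 1), KO minus WT, against the mean FPKM of the libraries (log axis) for the 10297 genes compared (grey) and the 10 integrin genes (purple), with dashed lines at 3-fold. The spread of all genes widens towards low levels, where Itga6, Itgav and Itgal lie, and Itga6 alone is past the lower line.

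Fibroblasts, endothelial cells and platelets also carry β1 and αv integrins, and their markers were examined beside these genes. The 7 fibroblast markers summed to 46.2 FPKM in WT against 84.5 in KO, of which Dcn made up 35.0 and 62.3. Of the 6 that passed the filter, 2 were higher by 3-fold (Pdgfra and Col1a2) and 1 was lower (Pdgfrb). These 3 had means of 1 to 10 FPKM, where 45.6% of all genes passed 3-fold in either direction. The 6 endothelial markers summed to 18.7 and 16.1 FPKM, with a median change of 0.10 over the 5 that passed the filter. Tie1 (4.12 FPKM in WT and 0 in KO), Vwf (1.03 and 0.116) and Tek (0.386 and 0) had the lower value in KO. Pecam1 (6.67 and 8.70), Cdh5 (5.53 and 5.98) and Kdr (1.01 and 1.36) had the higher value in KO. The 6 platelet markers summed to 14.2 and 10.3 FPKM. Ppbp was at 5.16 FPKM in WT against 1.57 in KO, and Gp1ba was at 8.84 in WT and listed at 0 in KO. Gp1bb was at 0.243 and 8.76, and Gp9, Gp5 and Gp6 were listed at 0 in both. The part of these cells in the levels of Itgb1, Itgav and Itgb5 was not tested.

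Other leukocytes share Itgal, Itga4 and Itgax, and the part of such cells in these levels was not tested. Of 12 T and NK cell markers, 10 were listed at 0 in both libraries, among them Cd3e, Cd3d, Cd3g and Nkg7. The list summed to 11.2 FPKM in WT against 14.0 in KO, from Cd4 (5.35 and 2.07) and Il7r (5.82 and 11.9). Of the B cell genes, Cd79a was at 2.50 and 0.222 FPKM, and Cd79b was listed at 0 in WT but at 5.52 in KO. The 7 dendritic cell markers summed to 125 and 140 FPKM, nearly all of it Cd209a at 122 and 131. Zbtb46 was listed at 0 in WT but at 9.45 FPKM in KO, Xcr1 was at 1.65 and 0.0588, and Clec9a was listed at 0 in both. The 6 eosinophil markers summed to 6.50 and 33.1 FPKM. Alox15 was at 6.50 and 25.7 FPKM, Ccr3 was listed at 0 in WT but at 7.45 in KO, and Siglecf, Epx, Prg2 and Il5ra were listed at 0 in both. The 6 mesothelial markers were listed at 0 in WT and summed to 7.84 FPKM in KO, all of it Upk3b. The 6 adipocyte markers summed to 5.83 and 8.70 FPKM, with Cidec at 5.83 in WT and at 0 in KO, Cfd at 0 and 7.11, and Adipoq and Plin1 at 0 in both.

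The rest of the integrin family was compared in the same way. Of 16 other integrin genes, Itga10 had no row and 8 were listed at 0 in both libraries (Itga2, Itga11, Itgad, Itgae, Itgb3, Itgb4, Itgb6 and Itgb8), which is not read as absence. Itga3 was at 0.0806 FPKM in KO only. Of the 6 that passed the filter, 1 was higher by 3-fold and 2 were lower, beside 13.6% of all genes higher and 13.7% lower, and all 3 of these were listed at 0 in a library. The median change of the 6, -0.62, depended on the filter and the pseudocount, as it was 0.13 with a minimum of 1 FPKM in both libraries or a mean of at least 5, 0.00 without a filter, and -3.52 when the pseudocount was 0.01. Itga7, a laminin receptor subunit of muscle, was at 0 in WT and 6.45 FPKM in KO, whereas the platelet subunit Itga2b (2.22) and Itga8 (2.04) were measured in WT and listed at 0 in KO. Itga1, a collagen receptor subunit, was at 1.24 FPKM in WT and listed at 0 in KO. Itgb7, the gut-homing partner of Itga4, was at 4.30 and 5.71 FPKM, a change of 0.34.

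Genes for integrin ligands and counter-receptors were compared as a list of 27, of which 17 passed the filter. The 7 listed at 0 in both libraries were Madcam1, F11r, Jam2, Jam3, Vtn (vitronectin), Edil3 and Cdh1. Of the 17 that passed, 4 were lower by 3-fold, 1 was higher and 12 were within it, beside 13.7% of all genes lower and 13.6% higher. The median change was -0.03, and it was -0.76 with a minimum of 1 FPKM in both libraries. The lower genes were Spp1, which encodes osteopontin, at 103 FPKM in WT against 8.41 in KO, Mfge8 at 24.6 and 4.14, and Thbs1, which encodes thrombospondin-1, at 37.8 FPKM in WT, 3.44 times its level in KO. Icam2, a ligand of LFA-1, was at 3.32 FPKM in WT and listed at 0 in KO, and the higher gene, Icam4, was listed at 0 in WT but at 7.09 in KO. Spp1 at a mean of 55.6 FPKM lay in the band where 4.72% of genes were lower by 3-fold. Like Itga6, Spp1 and Thbs1 are among the genes the study listed as lower from these same libraries.

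The 4 ligand genes with the highest mean FPKM were within 2-fold, as were most genes at these levels, since 7.75% of those at 100 FPKM and over and 19.5% of those at 30 to 100 passed it. Icam1, the main ligand of LFA-1 and Mac-1, was at 289 FPKM in WT against 309 in KO. Tgfb1, whose latent form is bound by αv integrins, was at 165 and 246 FPKM, a change of 0.58. Fn1, fibronectin, was at 198 and 117 FPKM, a change of -0.76, and Vcam1, the ligand of VLA-4, at 60.0 and 91.4 FPKM, a change of 0.60.

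The genes that activate integrins or signal from them were a list of 43, of which 40 passed the filter. Of these 36 were within 3-fold, 2 were higher and 2 were lower, beside 27.3% of all genes past 3-fold in either direction, and the median change was -0.10. Talin (Tln1) and kindlin-3 (Fermt3), which bind the β tail to switch the receptor on, were named for this role after their values had been seen. Tln1 was at 74.4 FPKM in WT against 62.5 in KO, and Fermt3 at 83.6 and 56.6. The 5 highest genes were Plaur, the urokinase receptor that associates with β2 integrins (182 and 275 FPKM), the GTPase Rap1b (139 and 189), the adhesion site proteins Zyx (141 and 169) and Pxn (128 and 134), and the kinase-like adaptor Ilk (135 and 118). None of these 5 reached 2-fold, which 7.75% of all genes with a mean of 100 FPKM and over did.

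Past 3-fold, Itgb1bp1, which encodes ICAP-1, a protein that binds the β1 tail and restrains activation, was at 6.82 FPKM in WT against 28.7 in KO. Parva, an actin-binding partner of Ilk, was listed at 0 in WT but at 2.88 FPKM in KO. Lower were Cd47, an integrin-associated protein and ligand of thrombospondin, at 62.0 FPKM in WT against 19.6 in KO, and the adaptor Bcar1, at 2.14 in WT and listed at 0 in KO. Cd47, with a change of -1.61, was just past the threshold and was within it when the libraries were scaled to the same sum of FPKM.

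**Figure D4:**
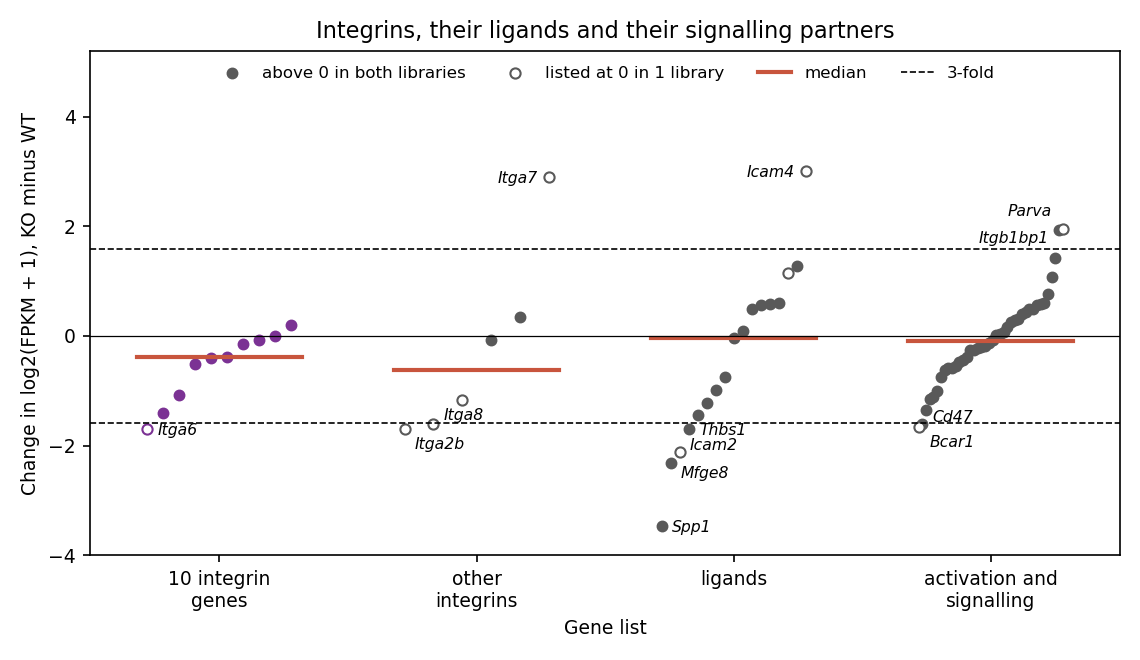
Change in log2(FPKM + 1), KO minus WT, of each gene that passed the filter in 4 gene lists, ordered by its value within a list, with the list median (red) and 3-fold lines (dashed). Open points are genes listed at 0 in a library. Medians are -0.39 for the 10 integrin genes, -0.62 for the other integrins, -0.03 for the ligands and -0.10 for the activation and signalling genes.

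Position and shared sequence limit some of these values. On GRCm38 the β2 partners are grouped on chromosome 7, with Itgal at 127296260 to 127335138, Itgam at 128062640 to 128118491 and Itgax at 128129547 to 128150657. Itgam ends 11.1 kb before Itgax, and Itgax ends 3.72 kb before Itgad. Of the distinct 50-base words of Itgax transcripts, 8.88% also occur in Itgad, so such reads could be assigned to either, and Itgad was listed at 0. In GENCODE M21 a gene model without a row in the table, Gm49368, covers 68.7% of the exon bases of Itgam on the same strand. What this overlap does to the level of Itgam was not tested. Likewise 7.79% of the words of Itgb5 occur in Gm38317 and 4.88% of those of Itga6 in Gm29397, neither of which had a row.

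The other members are spread over the genome. Itga6 (71745616 to 71858416), Itga4 (79255426 to 79333123) and Itgav (83724397 to 83806916) lie on chromosome 2. Itgb1 is on chromosome 8, Itga9 on chromosome 9, Itgb2 on chromosome 10 and Itgb5 on chromosome 16 (33829665 to 33949338). Exons of Itga4 overlap Cerkl on the opposite strand over 8.04% of their bases, and those of Itgav overlap Gm13684 over 5.90%. No use of strand is stated for the counting, so such reads cannot be assigned to a gene. Cerkl was at 1.20 FPKM in WT and listed at 0 in KO, far below Itga4. Of the distinct 50-base words of Itga4 transcripts, 10.9% also occur in other genes, most of them in Cerkl. For Itgal, Itga9 and Itgb1 no 50-base word was shared with another gene, and no exon base overlapped one.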

How the data were processed

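RNA from F4/80 and CD11b sorted ATM of WT and KO mice was sequenced, 1 library each. The authors deposited FPKM values per gene, and their processing notes name CASAVA 1.8.2, TopHat2 2.0.9, Cufflinks 2.2.1 and the build mm9. The annotation and filters were not given in the sources used here. The column named mut was taken as KO, the only library that is not WT. FPKM is already divided by length and library size, so no count model was used. Of 20749 rows, 401 full repeats were dropped and 18 further rows of an identifier already present were summed. A symbol was found for 20035 of 20330 identifiers (98.5%) in GENCODE M21, whose GRCm38 positions and lengths are used here and not those of mm9.

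Genes at 1 FPKM or more in either library were compared as log2(FPKM + 1) with pandas 2.3.3, at the 3-fold threshold of the study. Fragments were estimated from the longest coding transcript with a step of 0.170 FPKM x kb in WT against 0.134 in KO. They cover counting error only. The code for the calls was run on values with known folds and no noise. Its outcome was fixed in advance and does not measure false calls. The step was tried on simulated fragments. Members and lists were chosen with earlier results of these data known. Named are the members, other integrins at 1 FPKM or more, and from the ligand and signalling lists the genes past 3-fold and the 5 highest. Itga3, Tln1, Fermt3 and the genes at 0 were named outside this rule, after their values had been seen. Alternatives were other pseudocounts, filters, scalings, a 2-fold threshold and the highest of repeated rows. Promoters are from RefSeq. The sum of the B cell marker list is not reported here.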

Additional observations from a re-analysis of the deposited data

How the results depend on the processing

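With 1 library per genotype, no value has a replicate spread, so a recomputed value was allowed 1.5-fold. Of 226 values recomputed under 10 settings, 193 stayed within this and 33 moved by more. A reversal of sign was counted only for member genes past 3-fold, here Itga6, whose sign cannot change with a KO value of 0. Part of the 193 was fixed in advance. Filters left each member change they kept as it was, and scaling cannot alter a ratio within a library. No paired analysis was possible because there was only 1 library of each genotype. Of 88 member changes 2 moved, both for Itga6, to -4.54 with a pseudocount of 0.1 and -7.80 with 0.01, since it is listed at 0 in KO. Itgam, whose change was near 0, took the other sign in 2 of the scalings (between -0.07 and 0.04 in all). Itgb5 stayed between -1.48 and -1.37 and Itgav between -1.22 and -1.04. The number of members past 3-fold was 3 at the 2-fold threshold, and 0 with a minimum of 1 FPKM in both libraries or a mean of at least 5, which leave out Itga6. Scaling shifted all changes by 0.07 or less. The median of the other integrins was -1.91 and -3.52 with pseudocounts of 0.1 and 0.01, 0.00 with no filter, and 0.13 under both stricter filters, where 0 were higher and 0 lower. The ligand median was -0.76 with a minimum of 1 FPKM in both libraries. Higher ligands numbered 2 with either smaller pseudocount, 0 under both stricter filters and 3 at 2-fold. Higher activation and signalling genes numbered 1 under both stricter filters and 4 at 2-fold, and lower ones 1 under these filters, 1 with the same sum of FPKM and 6 at 2-fold. The stricter filters test fewer genes. Over all genes, those higher and lower numbered 429 and 447 with a minimum of 1 FPKM in both libraries. They numbered 598 and 646 at a mean of at least 5, and 2380 and 2314 at 2-fold. The libraries differed most at low levels, where Itgav, Itgal and Itga6 lie, and no replicate shows how much of this is spread within a genotype.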
